A study of Mus musculus with 8 samples.

Results

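The circadian clock genes were 10 genes chosen by name, Arntl, Clock, Per1, Per2, Per3, Cry1, Cry2, Nr1d1, Nr1d2 and Dbp, out of 21938 protein-coding genes in the annotation. All 10 were found in it, and all 10 had a promoter interval in each of 8 ATAC-Seq peak lists. ATAC-Seq maps open chromatin by inserting sequencing adapters with the Tn5 transposase. The lists came from hepatocytes of male C57BL/6 mice (C57BL/6J in the study's methods), 10-12 weeks old and fed a normal diet, with no genetic change named in the labels. Hepatocytes were isolated by collagenase perfusion from undamaged liver (0 h) or at 48, 72 and 96 h after partial hepatectomy (PHx), an operation that takes out a portion of the liver and lets the remainder regrow. Each of the 4 time points had 2 libraries. The labels do not tie the replicates to animals, while the study's methods describe several mice at each time point and independent biological replicates, more of them at 0 and 48 h than the 2 libraries each analysed here. The 0 h livers were undamaged and not sham-operated, so that the operation and the regrowth cannot be told apart.

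In the mammalian clock the proteins of Arntl (BMAL1) and Clock form a pair that binds E-boxes in DNA and switches on the Per and Cry genes, whose proteins then return to the nucleus and inhibit that pair. Nr1d1 and Nr1d2 encode the nuclear receptors REV-ERB alpha and beta, which repress Arntl by binding ROR response elements, and Dbp encodes an output factor that binds D-boxes. In liver this loop runs in nearly every hepatocyte and times many metabolic genes, so levels of these genes depend on the hour at which the tissue is taken. The time points are whole multiples of 24 h after PHx, and the hour of day of surgery or harvest is not given in the sources used here. The part of the hour of day in the results was not tested.

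Within each list the distinct peak intervals were ranked by the peak caller's −log10 p, with rank 1 for the strongest, and the lists held 105206 to 154577 intervals. Between 96 and 120 of them per list overlapped a clock gene body or its 10 kb flanks. A gene's promoter was the strongest interval within 1 kb of an annotated transcription start site (TSS) of that gene, and distal intervals lay over 1 kb from every annotated TSS. Without read counts in the lists, how deeply each library was sequenced is unknown. In bulk lists, fewer cells of a type and less accessibility per cell cannot be told apart. The −log10 p at rank 50000, which moves with depth, was 15.2 and 9.96 in the 0 h libraries (replicates 1 and 2), 8.05 and 8.62 (48 h), 14.8 and 14.0 (72 h), and 14.5 and 8.30 (96 h). Promoters of 3 of 6 hepatocyte markers were in all 8 lists (the best median rank was 3604, for Hnf4a, beside 4154.5 for a biliary and 5202 for a stellate marker), against 0 of 5 Kupffer and immune markers, 3 of which were in no list, 1 of 4 endothelial, 2 of 4 stellate and 2 of 4 biliary markers. The promoter of Alb, a defining hepatocyte marker, was in 3 lists, both at 0 h and 96 h replicate 1, and in none at 48 or 72 h. By the rule used below for the clock genes, 5 of 6 hepatocyte markers were weaker than 0 h at 48 h (all but Apob), 4 at 72 h and 3 at 96 h, and Alb and Tat were weaker at all 3 times. Over all protein-coding promoters 28.7%, 30.5% and 19.6% were weaker and 17.8%, 17.5% and 15.4% stronger at 48, 72 and 96 h, and 7.87% were weaker at all 3. Of the stellate markers, Des and Reln were stronger at 48 h and Reln at 96 h, and 0 Kupffer and immune, endothelial or biliary markers stood apart at any time. Des was absent from 0 h replicate 2 and ranked 119045.5 in replicate 1. The 0 h ranks of Reln, 5347 and 23625.5, were 4.42-fold apart. The part of other cells in the results was not tested.

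Sequences that bear known motifs of clock gene regulation were examined first, because they mark possible binding sites within the intervals described here. The motifs were sought on both strands in 300 bases centred on a summit. They were the E-box CACGTG, the E'-box CACGTT, the D-box TTATGTAA or TTACGTAA, the cAMP response element TGACGTCA and the ROR response element. No motif contains another. Sequence came from the RefSeq GRCm38.p6 assembly, the same build as the mm10 coordinates of the lists, and capitals mark the motif. Among 16432 protein-coding promoters with an interval, 7.11% held the E-box, 4.72% the E'-box, 0.438% the D-box, 2.12% the cAMP response element and 0.207% the ROR response element. Of the 10 clock gene promoters, 1 held the E-box (Per1), 1 the E'-box (Nr1d1) and 1 the D-box (Per3), and none held either of the other motifs. A match is a description of the letters, and a window without one says nothing of binding.

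Per1, a repressor of the loop, had an E-box in each of 2 promoter regions, at −147 and −162 bases from the nearest TSS, and a cAMP response element in the intronic region between them. They are shown in 30 bases each, on the strand of the gene, because these 3 regions are followed one by one further on. The first lies at chr11:69095055-69095084, the second at chr11:69098771-69098800 and the cAMP response element at chr11:69097191-69097220 (plus strand, mm10).
Per1 first promoter E-box: cgcccccgccctCACGTGgctctatcacta
Per1 second promoter E-box: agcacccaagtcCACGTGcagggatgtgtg
Per1 intron cAMP response element: tgcctccgcttTGACGTCAcctccctctcc

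The part of the first Per1 promoter window that lies before the exon, 214 bases at chr11:69095003-69095216 (plus strand), is shown because Per1 was the promoter with the largest difference from 0 h at 48 h.
Per1 promoter: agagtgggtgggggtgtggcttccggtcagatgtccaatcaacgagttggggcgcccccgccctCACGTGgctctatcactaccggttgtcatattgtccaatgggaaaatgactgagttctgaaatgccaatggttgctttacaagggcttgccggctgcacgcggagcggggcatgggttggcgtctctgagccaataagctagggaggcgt

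Per3, another repressor, held 2 D-boxes, at −155 and −202 bases from its nearest TSS. Its window of 300 bases, chr4:151044780-151045079 (minus strand), is shown because this promoter varied most between libraries.
Per3 promoter: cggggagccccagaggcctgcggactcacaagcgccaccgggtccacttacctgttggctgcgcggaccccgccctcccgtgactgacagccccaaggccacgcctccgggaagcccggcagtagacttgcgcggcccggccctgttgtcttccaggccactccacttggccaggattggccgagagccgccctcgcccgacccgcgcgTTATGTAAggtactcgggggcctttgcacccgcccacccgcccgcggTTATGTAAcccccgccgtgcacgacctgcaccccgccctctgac

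The Nr1d1 promoter window, 300 bases at chr11:98775353-98775652 (minus strand), held an E'-box at −70 bases from the TSS, read here as AACGTG from the other strand. It is shown because this was the 1 member promoter below both 0 h libraries at every time after PHx.
Nr1d1 promoter: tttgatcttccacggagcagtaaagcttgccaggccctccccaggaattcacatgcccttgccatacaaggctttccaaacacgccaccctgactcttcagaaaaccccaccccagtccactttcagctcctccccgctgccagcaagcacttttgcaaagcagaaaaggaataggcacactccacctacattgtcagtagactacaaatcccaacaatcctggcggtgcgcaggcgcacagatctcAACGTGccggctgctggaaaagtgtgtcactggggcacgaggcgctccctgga

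Distal regions of the clock genes also held these motifs. Of the 36 found in all 8 lists, 2 held an E-box (5.01% of 29016 such regions near coding genes), 1 an E'-box (4.41%), 2 a ROR response element (0.944%), 1 a cAMP response element (0.403%) and 0 a D-box (1.57%). The Cry2 region at chr2:92423585-92424090, in an intron, held 2 E-boxes, and an Nr1d1 region at −8.3 kb from the first base of the gene held 1 E-box. A second Nr1d1 promoter region, in an intron at chr11:98773657-98774344, held 2 E-boxes. Per2 carried an E'-box in its coding-exon region. Both ROR response elements were in introns of Arntl, the gene that the REV-ERB receptors repress. A Cry1 intron region held 2 further ROR response elements, on opposite strands, but was absent from 1 list. The sites of Cry2, Arntl and Cry1 (mm10, on the strand of each gene) are shown because their regions are described again below. Their positions are chr2:92423855-92423884, chr7:113242914-113242942, chr7:113250941-113250969, chr10:85161900-85161928 and chr10:85161955-85161983, in the order of the lines.
Cry2 intron E-box: cccttcccctgcCACGTGccaggggagggc
Arntl intron ROR response element, first: ttaactgtgTGACCCACATTggccagcct
Arntl intron ROR response element, second: gttgacagcTGACCTACTTTtgtttgacc
Cry1 intron ROR response element, first: ctatagcgaTGACCTACTTTagaaactat
Cry1 intron ROR response element, second: acagactagAAAGTAGGTCAttgtgatgg

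The clock gene promoters differed widely in strength. Nr1d2 was strongest, with a median rank of 482.5 over the 8 lists, followed by Arntl (7424.5), Clock (8526), Cry2 (11263), Per3 (13339), Cry1 (23945.5), Per2 (36536.5), Nr1d1 (41903.5), Per1 (42770.5) and Dbp (47999.5). The ranks of Nr1d2, 310 to 736, did not overlap with those of any other member. Every other pair of neighbours in this order overlapped in range over the 8 libraries. A rank reflects the p-value of a whole interval, which grows with the width and depth of a peak, and is not a level of expression.

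**Figure D1:**
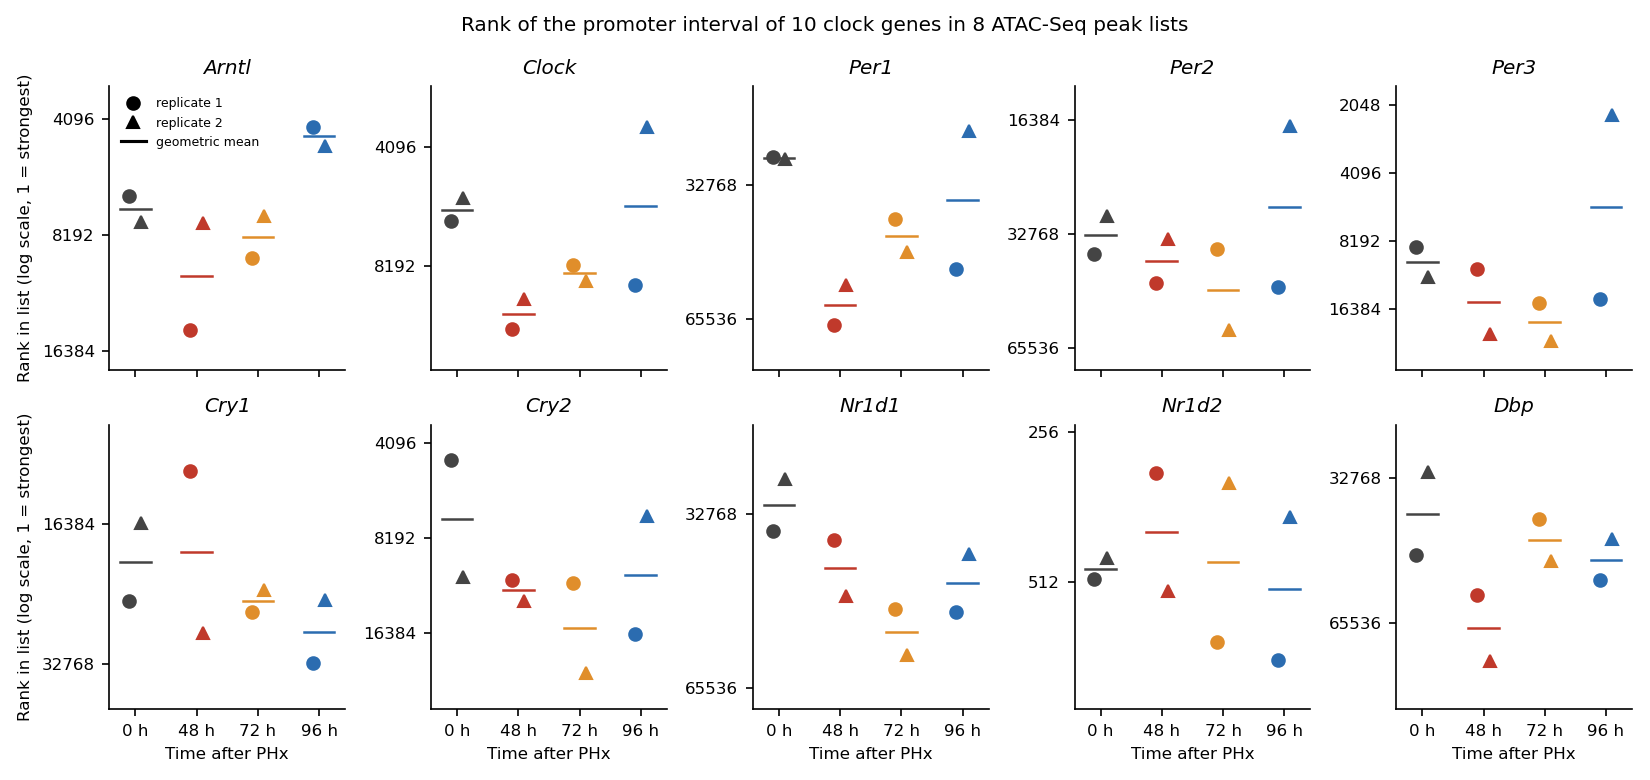
Rank of the promoter interval (y axis, log2-spaced, stronger upward, each panel with its own range) of each clock gene in each library, against time after PHx (x axis). Circles are replicate 1, triangles replicate 2 and lines the geometric mean of the 2. At 48 h both libraries lie below both 0 h libraries for Arntl, Clock, Per1, Cry2, Nr1d1 and Dbp, and at 96 h replicate 2 lies above replicate 1 in 9 of 10 panels.

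The comparison of 48 h with 0 h asks how these promoters stood within the window in which hepatocytes proliferate after PHx. Of the 10 promoters, 6 had ranks at 48 h that were all weaker than the 0 h ranks, with no overlap, and 0 had ranks that were all stronger. The background is the same count over 14284 protein-coding promoters, of which 28.7% were weaker and 17.8% stronger. With 2 libraries against 2 the smallest two-sided exact permutation p is 0.333, so these counts carry no p-value. The members that were weaker in this sense were both activators (Arntl and Clock), the repressors Per1 and Cry2, the receptor Nr1d1 and the output factor Dbp. Over the same contrast 5 of 6 hepatocyte markers were weaker, and Hnf4a, a hepatocyte transcription factor, had a log2 rank change of 0.98. Of the 4 stellate markers, Reln had −1.81 and Des −0.47, both stronger without overlap, and Lrat had −0.24 with overlap. Dcn was in no list at 0 or 48 h. The mean fold enrichment of Reln was 11.1 at 0 h and 11.4 at 48 h. Without 48 h replicate 1, 9 clock promoters were weaker and 0 stronger, beside 41.1% and 34.7% of all promoters. Without 48 h replicate 2, 7 were weaker and 2 stronger, beside 45.8% and 31.6%. The median change in log2 rank of the 10 promoters was 0.59 (above 0 is weaker), beside 0.20 over 13220 promoters in all 8 lists.

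This count depended on what the intervals were ranked by. Ranked by fold enrichment, the height of the summit over local background, 2 of 10 were weaker (Per1 and Dbp) and 0 stronger, beside 20.3% and 21.2% of all promoters, and the median log2 rank change was 0.06 beside 0.02. As a percentile of the list, which allows for list length, 4 were weaker (Clock, Per1, Nr1d1 and Dbp) and 1 stronger (Nr1d2), beside 22.5% and 21.05% of all promoters. Per1 and Dbp were thus weaker at 48 h by all 3 measures. Both 48 h libraries were among those with the lowest −log10 p at rank 50000, and the part of depth was not tested.

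Per1 differed most from 0 h at 48 h. Its promoter ranked 28460 and 28670 (0 h), 67642 and 54973.5 (48 h), 39173.5 and 46367.5 (72 h), and 50534.5 and 24858 (96 h). The 0 h libraries nearly coincided, and both libraries at 48 and 72 h were weaker than they were, whereas the 96 h pair lay on either side of them. In fold enrichment it was 5.27 ± 0.17 (0 h, mean ± SD, n = 2 in each group), 3.18 ± 0.20 (48 h), 4.83 ± 0.67 (72 h) and 5.23 ± 1.89 at 96 h. The log2 rank changes at 48, 72 and 96 h were 1.09, 0.58 and 0.31. Fold enrichment as deposited was lower at 48 h over all regions in the 8 lists, with a median difference of −0.37 on the log2 scale, so the limma values, which are quantile-normalized, are given beside it.

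Per1 has 2 promoter regions in all 8 lists, those with the E-boxes printed above. The first, chr11:69094677-69096001, ranked 28460 and 28670 (0 h) and 76202 and 54973.5 (48 h). The second, chr11:69098516-69099369, inside an intron of the longer transcript, ranked 29613 and 34887 (0 h) and 67642 and 82963 (48 h). Both were weaker in both libraries at 48 h. In limma, fitted across 57473 regions on log2 fold enrichment, the difference at 48 h was −0.57 ± 0.30 (SE) for the first and −0.60 ± 0.31 for the second, with adjusted p of 0.56 for each.

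Dbp, the output factor, ranked 47269 and 31828 (0 h), 57239.5 and 78651.5 (48 h), 39703 and 48730 (72 h), and 53271 and 43858 (96 h). The 48 h libraries were its weakest, and those at 72 and 96 h overlapped with 0 h. Its fold enrichment was 3.16 ± 0.21 (0 h) and 2.54 ± 0.28 at 48 h (SD, n = 2 each). After normalization the difference of its promoter region at 48 h was −0.17 ± 0.26 (SE, limma), with an adjusted p of 0.87.

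Of the activators, Clock, which encodes the partner of BMAL1, ranked 6297 and 5517 (0 h), 11853.5 and 9943 (48 h), 8129 and 8923.5 (72 h), and 9178 and 3645 (96 h). It was weaker at 48 and 72 h without overlap, with log2 rank changes of 0.88 and 0.53, and the 96 h libraries spanned the 0 h pair. By fold enrichment the changes in its log2 rank were 0.03 and 0.13.

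Arntl was the 1 promoter that lay on opposite sides of 0 h at different times. It ranked 6478 and 7555 (0 h), 14409 and 7614 (48 h), 9373 and 7294 (72 h), and 4285 and 4802 (96 h). At 48 h replicate 2 was close to the weaker 0 h library, and at 96 h both libraries were the strongest of the 8. The stronger position at 96 h held by −log10 p, by fold enrichment and as a percentile. The weaker position at 48 h held only by −log10 p rank. In limma its promoter region differed by 0.18 ± 0.24 (SE) at 96 h and by −0.0070 ± 0.24 (48 h), with adjusted p of 0.99 for each.

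At 72 h 5 of 10 promoters were weaker than at 0 h without overlap (Clock, Per1, Per3, Cry2 and Nr1d1), beside 30.5% of 14658 promoters, and 0 were stronger, beside 17.5%. Ranked by fold enrichment 3 were weaker (Clock, Per3 and Nr1d1) and 0 stronger, beside 25.8% and 17.2% of all promoters. As a percentile 3 were weaker (Clock, Per1 and Nr1d1) and 0 stronger, and the background turned round, with 16.3% weaker and 28.6% stronger. Clock and Nr1d1 were weaker by all 3 measures. Without 0 h replicate 1, 8 were weaker, beside 46.8% of all promoters. Without 72 h replicate 2, 8 were weaker, beside 43.4%, and without 72 h replicate 1, 7 were weaker and 1 stronger, beside 43.8% and 32.9%. The median log2 rank change of the members was 0.51, beside 0.24 for all promoters.

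Nr1d1, which encodes REV-ERB alpha, ranked 35032 and 28528 (0 h), 36401.5 and 45346 (48 h), 47862 and 57304 (72 h), and 48404 and 38461 (96 h). All 6 PHx libraries were weaker than both 0 h libraries, although 48 h replicate 1 was close to 0 h replicate 1. It was the 1 of 10 promoters weaker at all times after PHx, beside 7.87% of 14030 promoters, and 0 of 10 were stronger at all times, beside 4.63%. Ranked by fold enrichment it overlapped with 0 h at 48 and 96 h, and the count was then 0. Without 96 h replicate 2 the count of weaker promoters was 4, beside 13.9% of all promoters. Without 0 h replicate 1 or 2 it was 2, beside 23.4% and 15.6%. Its fold enrichment was 4.43 ± 0.10 (0 h), 3.82 ± 0.37 (48 h), 3.77 ± 0.12 (72 h) and 4.09 ± 0.81 at 96 h (SD, n = 2 each). After normalization its promoter region differed from 0 h by 0.06 ± 0.26 (SE, limma) at 48 h and by −0.06 ± 0.21 over all PHx times, with adjusted p of 0.96 and 0.98.

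Its paralog Nr1d2, which encodes REV-ERB beta, ranked 506 and 459 (0 h), 310 and 533 (48 h), 676 and 324 (72 h), and 736 and 379 (96 h). The pairs at each time after PHx lay on either side of 0 h. Its fold enrichment, 13.2 ± 0.79 (0 h) and 11.1 ± 0.60, 12.5 ± 0.37 and 12.9 ± 2.97 at 48, 72 and 96 h (SD, n = 2 each), had its widest spread at 96 h. After normalization its promoter region differed from 0 h by 0.18 ± 0.26 (SE, limma) at 48 h, with an adjusted p of 0.87.

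Among the repressors, Cry2 ranked 4640 and 10896.5 (0 h), 11103 and 12976 (48 h), 11423.5 and 22061 (72 h), and 16529 and 6974 (96 h). Its 0 h libraries differed 2.35-fold in rank, the widest 0 h gap of the 10, and the weaker of them lay close to the 48 h pair. Cry1 ranked 23989 and 16278 (0 h), 12569 and 28113 (48 h), 25284 and 22727 (72 h), and 32597 and 23902 (96 h), with overlap at every time. Per2 ranked 37047 and 29310 (0 h), 44242.5 and 33763.5 (48 h), 36026 and 58901 (72 h), and 45275 and 17020 (96 h), again with overlap throughout.

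Per3 had the widest range of the 10, 3.32 on the log2 scale. It ranked 8721 and 11822 (0 h), 10950 and 21304.5 (48 h), 15539.5 and 22831.5 (72 h), and 14855.5 and 2280 (96 h). The 72 h pair was weaker than both 0 h libraries, and the range was set by 96 h replicate 2, which was by far its strongest library. The 3 protein-coding promoters whose log2 ranks followed Per3 most closely over the 8 libraries were Tbcb and Polr2i (Pearson r of 0.977 each) and BC031181 (r of 0.974), out of 13220 searched, which describes 8 libraries and carries no test.

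At 96 h the count of separated promoters was small. Arntl was stronger, 1 of 10, beside 15.4% of 14373 promoters, and Nr1d1 was weaker, 1 of 10, beside 19.6%. Ranked by fold enrichment Arntl alone was apart, beside 16.0% stronger and 14.9% weaker over all promoters. As a percentile both were, beside 23.3% and 12.3%. The median log2 rank change of the 10 was 0.22, beside 0.10 for all promoters in all 8 lists.

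The 96 h replicates disagreed on these genes. In 9 of 10 members, all but Arntl, the promoter was stronger in replicate 2 than in replicate 1, and the median difference in log2 rank was −0.99. Over 13220 promoters the median difference was −0.16, and 56.7% were stronger in replicate 2. In 5 of 10 members (Clock, Per1, Per2, Per3 and Cry2) replicate 2 was over 2-fold stronger in rank, beside 20.6% of all promoters. By fold enrichment the median differences were −1.07 for the members and −0.41 for all. The gap was 6.52-fold at Per3, 2.66-fold at Per2, 2.52-fold at Clock, 2.37-fold at Cry2 and 2.03-fold at Per1.

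The side on which the members fell at 96 h therefore rested on 1 library. Without replicate 1, 6 of 10 promoters were stronger than both 0 h libraries and 1 was weaker, beside 38.1% and 34.3% of all promoters. Without replicate 2, 1 was stronger and 9 were weaker, beside 32.5% and 41.9%. In the other time points the median difference between replicates was −0.17 at 0 h, 0.27 at 48 h and 0.25 at 72 h, with 6, 4 and 3 of 10 members stronger in replicate 2.

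**Figure D2:**
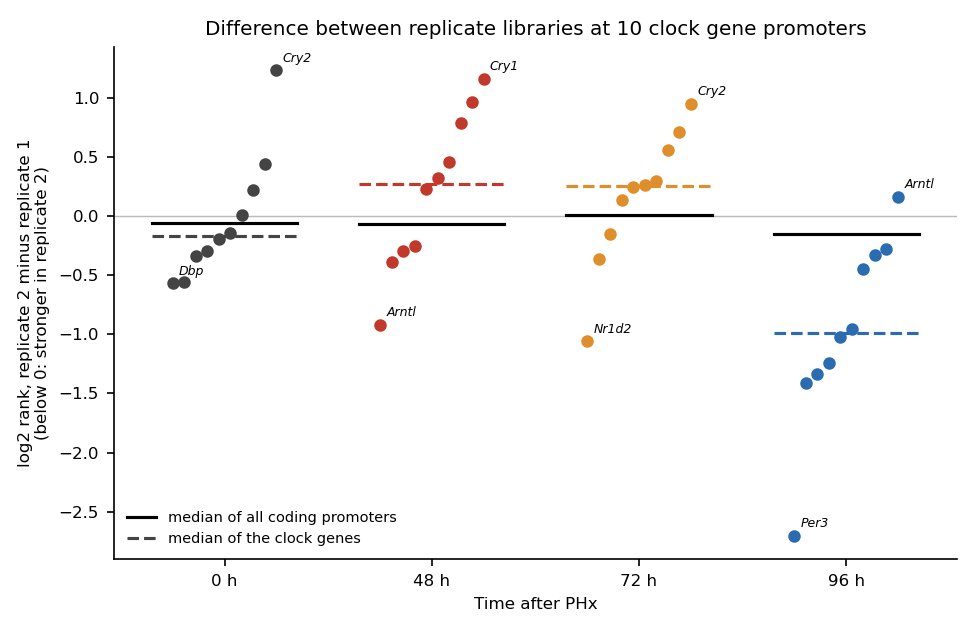
Difference in log2 rank between replicate 2 and replicate 1 (y axis, below 0 is stronger in replicate 2) at each time point (x axis), with 1 point per clock gene promoter in order of its value. Solid lines are the median of 13220 promoters and dashed lines the median of the 10 members. At 96 h the members' median is −0.99 and that of all promoters −0.16, with Per3 lowest at −2.70.

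Regions outside promoters were taken from the merged intervals of all lists. Of 315767 regions, 196 overlapped the clock genes or their flanks and 166 of these were distal. Among the 166, 36 were in all 8 lists, 54 in 2 to 7 and 76 in 1 only. Arntl had the most (36, of which 10 in all lists) and Dbp the fewest (5, of which 1). A distal region could separate from 0 h if it was listed in both libraries of at least one of the groups compared, which held for 58, 64 and 59 of the 166 at 48, 72 and 96 h.

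With all libraries kept, more distal regions were weaker than stronger by −log10 p rank. At 48 h 22 of 58 were weaker than at 0 h without overlap, beside 27.8% of 50306 distal regions near coding genes, and 9 were stronger, beside 21.2%. At 72 h 21 of 64 were weaker, beside 19.7% of 58480, and 10 were stronger, beside 27.6%. At 96 h 19 of 59 were weaker, beside 22.5% of 52681, and 5 were stronger, beside 20.7%. At all times after PHx 7 of 57 were weaker, beside 8.93% of 45715, and 2 stronger, beside 4.09%.

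With 1 PHx library left out, regions listed in the remaining library alone could also separate, and both counts rose. Without 48 h replicate 1, 34 of 81 members were stronger and 33 weaker, shares of 42% and 40.7% beside 56.6% and 25.6% of all distal regions near coding genes. Without 48 h replicate 2, 26 of 72 were stronger and 26 weaker, 36.1% each, beside 50.3% and 32.1%. Without 72 h replicate 1, 38 of 84 were stronger (45.2%, beside 58.2%) and 30 weaker (35.7%, beside 20.7%). Without 72 h replicate 2, 35 of 83 were stronger (42.2%, beside 52.9%) and 32 weaker (38.6%, beside 22.9%). Without 96 h replicate 1, 20 of 72 were stronger (27.8%, beside 51.6%) and 30 weaker (41.7%, beside 29.9%). Without 96 h replicate 2, 38 of 88 were stronger (43.2%, beside 55.1%) and 30 weaker (34.1%, beside 21.8%). In these 6 settings the weaker share of the members was above that of all distal regions and the stronger share below it.

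Leaving out a 0 h library also raised the counts. At 48 h, without 0 h replicate 2, the members were near the background, with 39 of 74 weaker (52.7%, beside 51.1%) and 15 stronger (20.3%, beside 20.75%). Without 0 h replicate 1, 46 of 70 were weaker (65.7%, beside 51.3%) and 15 stronger (21.4%, beside 26.8%). At 72 h the weaker shares without 0 h replicate 1 or 2 were 54.1% and 48.7%, beside 44.8% and 44.5%, and at 96 h 61.4% and 54.7%, beside 48.1% and 47.6%. At all PHx times 29 regions were weaker and 7 stronger without 0 h replicate 1, beside 36.1% and 11.05% of all distal regions that could separate. Without 0 h replicate 2 there were 20 and 5, beside 28.6% and 5.44%. The number of members that could separate was not recorded for these settings at all PHx times, so those counts cannot be turned into shares.

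Ranked by fold enrichment, the split was close to that by −log10 p. There were 20 weaker and 9 stronger of 58 at 48 h, 23 and 9 of 64 (72 h), and 22 and 5 of 59 (96 h). The background was 28.0% weaker and 19.5% stronger (48 h), 21.3% and 24.9% (72 h), and 23.6% and 18.4% (96 h).

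As a percentile of the list the split moved, for the members and for the background. There were then 18 weaker and 11 stronger of 58 at 48 h, 11 and 15 of 64 (72 h), and 14 and 13 of 59 (96 h). The background was 21.7% weaker and 25.05% stronger at 48 h, 8.79% weaker and 43.5% stronger at 72 h, and 13.4% weaker and 29.1% stronger at 96 h. The median log2 rank change of the 36 regions in all lists was 0.21, 0.17 and 0.37 at 48, 72 and 96 h, beside 0.02, −0.01 and 0.03 over 29016 such regions.

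**Figure D3:**
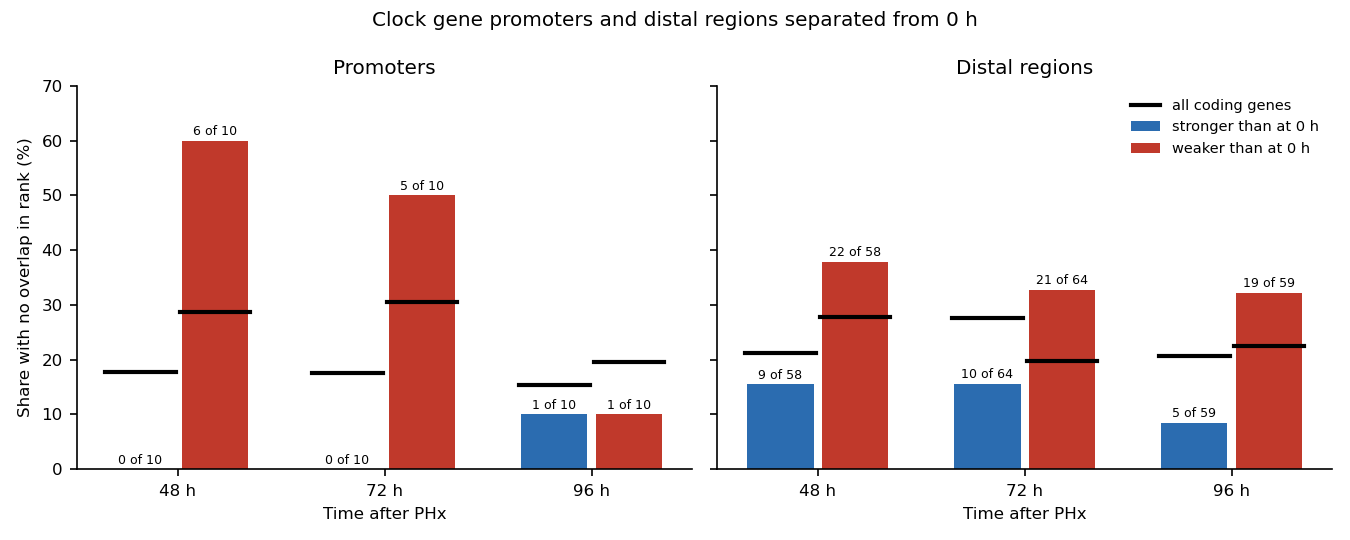
Share of the clock genes' promoters (left) and distal regions (right) whose ranks in both libraries of a time point lay above (blue) or below (red) both 0 h ranks, in percent of those that could separate (y axis), by time after PHx (x axis). Black lines mark the same share over all protein-coding genes, and labels give counts. Weaker promoters reach 6 of 10 at 48 h and 5 of 10 at 72 h, and weaker distal regions 22 of 58, 21 of 64 and 19 of 59.

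Per2 encodes a repressor of the BMAL1 and CLOCK pair, and 7 of its 16 distal regions were in all 8 lists. Of those 7, 4 were weaker without overlap at 48 h, 4 at 72 h and 3 at 96 h, while 0, 1 and 1 were stronger. Over 29016 distal regions in all 8 lists, 22.8%, 19.5% and 19.6% were weaker and 20.5%, 21.5% and 16.7% stronger at these times. The region at chr1:91439730-91440521, in a coding exon 19.4 kb into the gene and with an E'-box, ranked 17348 and 22653 (0 h), 37050 and 59816.5 (48 h), 33287.5 and 41836 (72 h), and 39156 and 35128 (96 h). All 6 PHx libraries were weaker than both 0 h libraries, with log2 rank changes of 1.25, 0.91 and 0.90. In limma its log2 fold enrichment over all PHx times was −0.32 ± 0.22 (SE) against 0 h, with an adjusted p of 0.79.

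The Per2 intron region at chr1:91445865-91446764 was also weaker at all times by −log10 p rank. It ranked 9978 and 9699 (0 h), 10091.5 and 18023 (48 h), 16954.5 and 17927 (72 h), and 18920 and 16403.5 (96 h). Only 48 h replicate 1 came near the 0 h pair. In limma, on normalized fold enrichment, the differences at 48, 72 and 96 h were 0.09, −0.21 and −0.05, each within its SE of 0.26, and at 48 h the libraries lay on either side of the 0 h pair. The intron region at chr1:91455645-91456815, 3.2 kb into the gene, ranked 15636 and 24411 (0 h) and 47655 and 33552.5 (48 h), which is a log2 rank change of 1.03, and its later pairs overlapped with 0 h. The Per2 promoter itself did not separate at any time.

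Per1 had 3 distal regions in all lists. The intron region with the cAMP response element, chr11:69097034-69097475, ranked 33649 and 30440.5 (0 h), 52991 and 39326 (48 h), 61893.5 and 50549 (72 h), and 53388 and 100495 (96 h). By −log10 p rank it was weaker than 0 h in all 6 PHx libraries, with log2 rank changes of 0.51, 0.81 and 1.19. At 96 h its replicate 2 was the weakest of the 8, where replicate 2 was the strongest at both Per1 promoter regions on either side. In limma, on normalized fold enrichment, the differences of this intron region at 48, 72 and 96 h were −0.11, −0.32 and −0.59, with an SE of 0.25 for each. The limma test at 96 h gave an unadjusted p of 0.038 and an adjusted p of 0.86. At 48 h the normalized values overlapped with 0 h.

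**Figure D4:**
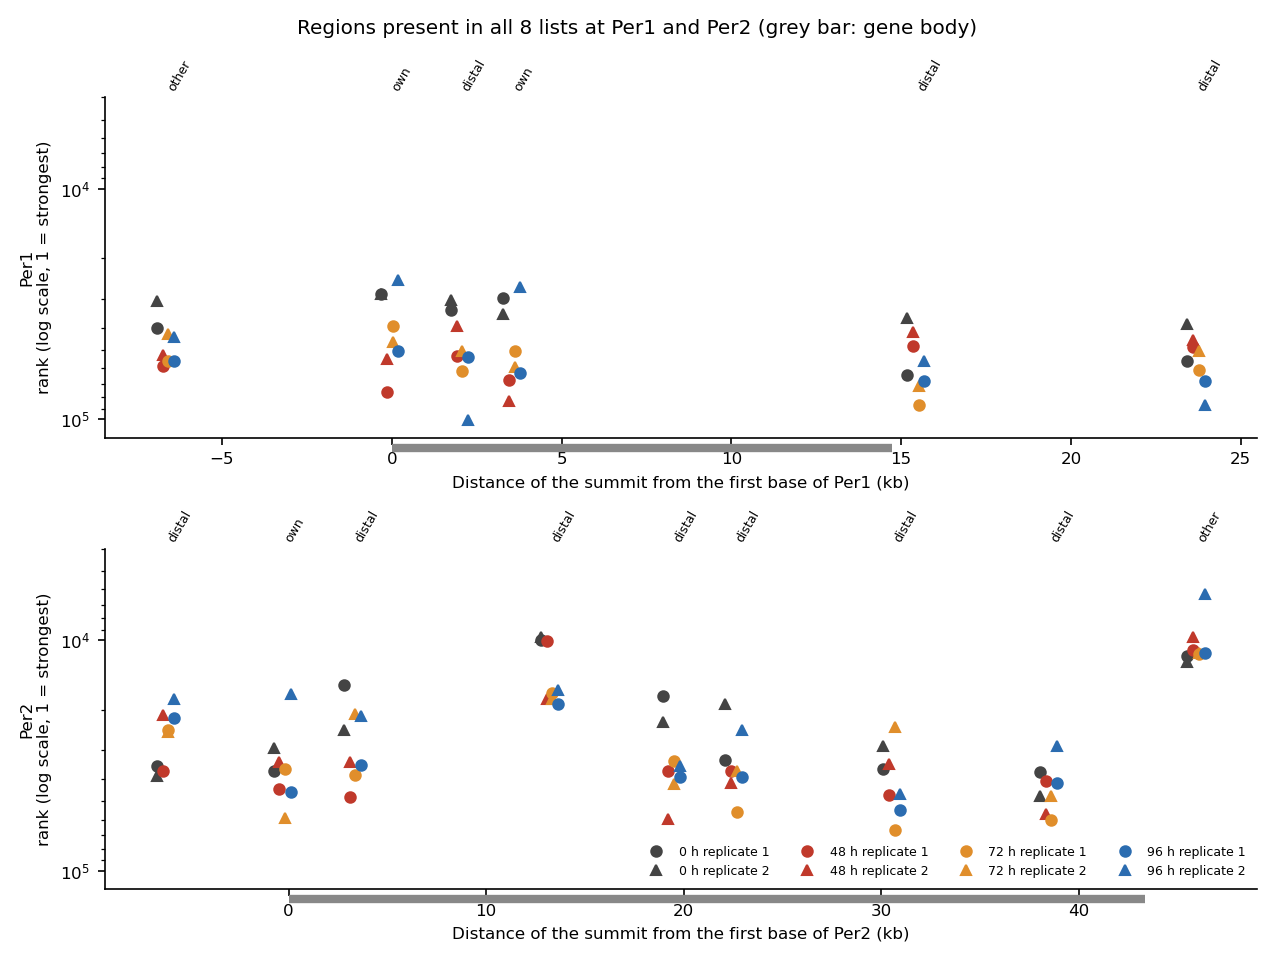
Rank (y axis, log scale, stronger upward) of each region in all 8 lists at Per1 (top) and Per2 (bottom), by distance of its summit from the first base of the gene in kb (x axis, the grey bar is the gene body). Colours are time points, circles replicate 1 and triangles replicate 2, and words above mark own promoters, promoters of other genes and distal regions. At Per1 the 48 h libraries lie below the 0 h ones at both own promoters, and at Per2 the regions 13.2 and 19.4 kb into the gene are weaker in all 6 PHx libraries.

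Arntl and Clock had distal regions on both sides of 0 h. The strongest distal region of any member lay in an Arntl intron, chr7:113260464-113261076, and ranked 398 and 401 (0 h), 303 and 1110.5 (48 h), 214 and 224 (72 h), and 275 and 1231 (96 h). By −log10 p rank it was stronger at 72 h without overlap, and 1 library each at 48 and 96 h was weaker. Its fold enrichment as deposited went the other way, at 21.1 and 21.3 (0 h) and 18.4 and 18.6 (72 h). After normalization both 72 h libraries still lay below both 0 h libraries, with a limma difference of −0.09 ± 0.23 (SE). Its neighbour at chr7:113261646-113262109 ranked 38500 and 22121 (0 h), 20182 and 26079 (48 h), 36497 and 26240 (72 h), and 71761.5 and 75196.5 (96 h). The 96 h libraries stood apart on the weaker side with a log2 rank change of 1.33, and in limma the difference was −0.87 ± 0.26 (SE), with an unadjusted p of 0.0056 and an adjusted p of 0.78.

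Of the Arntl regions with a ROR response element, the one at chr7:113250504-113251351 ranked 17418 and 23287 (0 h), 16948.5 and 14277.5 (48 h), 34727 and 37228.5 (72 h), and 17461.5 and 41237.5 (96 h). By −log10 p rank it was stronger than 0 h at 48 h, by a narrow margin in replicate 1, and weaker at 72 h. Its fold enrichment as deposited was 11.5 and 9.71 at 0 h and 6.62 and 8.15 at 48 h, and after normalization limma gave a difference within its error, −0.12 ± 0.27 (SE). The other, at chr7:113242160-113243160, overlapped with 0 h at every time.

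At Clock, the intron region at chr5:76253357-76254029 was stronger at all times after PHx. It ranked 35693.5 and 25153 (0 h), 12138.5 and 18081 (48 h), 14590.5 and 18154 (72 h), and 22991.5 and 20971.5 (96 h). In limma its log2 fold enrichment over all PHx times was 0.33 ± 0.19 (SE) above 0 h, with an adjusted p of 0.73. The region at chr5:76238970-76239816 ranked 46188.5 and 94114.5 (0 h) and 25721.5 and 31474 (72 h), a log2 rank change of −1.21, and its nearest annotated TSS was that of a pseudogene, Ube2n-ps1. The region at chr5:76289177-76290032 ranked 11127 and 17277.5 (0 h) and 24619.5 and 49305 (96 h), a change of 1.33.

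At Cry2, the intron region with the E-boxes ranked 39723 and 26710 (0 h), 87404.5 and 50014 (48 h), 45100 and 36904 (72 h), and 45851 and 86067.5 (96 h). It was weaker at 48 and 96 h without overlap, with changes of 1.02 and 0.95, and overlapped at 72 h. Another Cry2 intron region, chr2:92422418-92422702, was stronger in all 6 PHx libraries, with ranks of 39789 and 43959 (0 h) and 14118.5 to 36749.5 after PHx. The strongest of the gene, chr2:92421759-92422279, overlapped with 0 h at every time. A noncoding gene, D930015M05Rik, overlaps all 3, so that they cannot be assigned to Cry2 alone.

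The Cry1 intron region with the ROR response elements was listed at ranks 52334.5 and 31413.5 (0 h), at 51965.5 in 48 h replicate 2 and not at all in 48 h replicate 1. It ranked 92142.5 and 141063 (72 h) and 78490 and 69732 (96 h). Both libraries at 72 and 96 h were weaker than both at 0 h, and at 48 h replicate 2 lay between them. The strongest Cry1 region, 5.2 kb before the gene at chr10:85189708-85190962, ranked between 13348 and 52810.5. By −log10 p rank it was weaker than 0 h at 96 h only, by a log2 rank change of 0.29. In limma its difference at 96 h was −0.0098 ± 0.30 (SE), and both normalized 96 h values lay between those of the 0 h pair.

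The strongest distal regions of the remaining members overlapped with 0 h at most times. That of Nr1d1, chr11:98766438-98767696, lies downstream within Thra, and that of Per3, chr4:151006985-151007779, lies in an intron where Camta1 overlaps. Neither stood apart at any time. That of Nr1d2, chr14:18210534-18211187, ranked 53042 and 28726 (0 h) and 72512.5 and 61182 (48 h), without overlap, and overlapped later. That of Dbp, chr7:45706812-45707060, lies in a coding exon and was absent from 96 h replicate 1, and was weaker at 72 h without overlap, with ranks of 44638 and 31028 (0 h) and 56974 and 63700 (72 h).

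**Figure D5:**
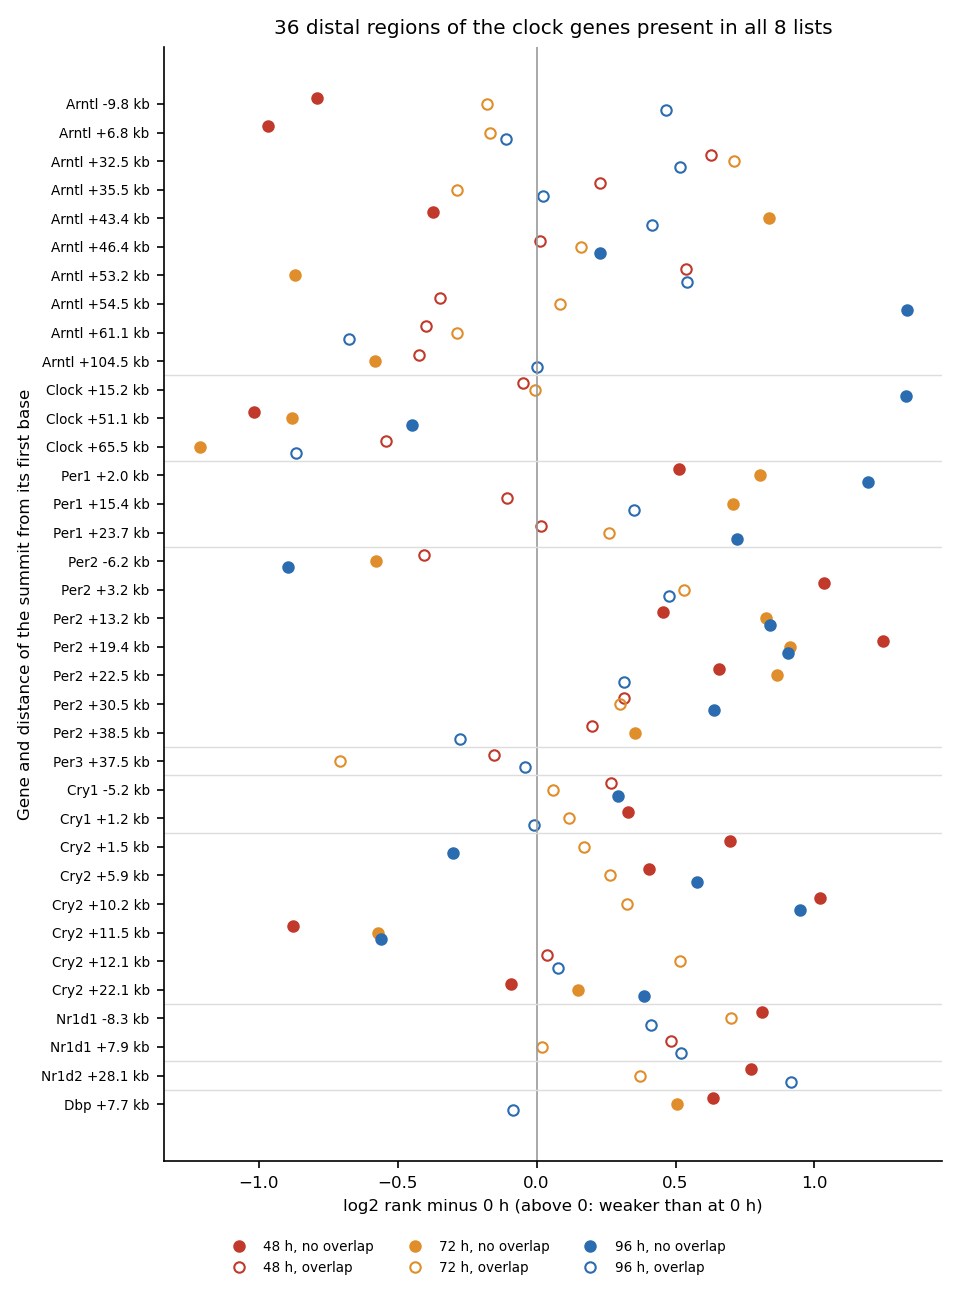
Change in mean log2 rank from 0 h (x axis, above 0 is weaker) of the 36 distal regions of the clock genes found in all 8 lists, named by gene and by distance of the summit from the first base of the gene (y axis). Filled points mark regions whose 2 libraries at that time did not overlap with the 0 h libraries, and colours mark the time. The regions within Per2 lie mostly to the right, and the Clock region at 51.1 kb lies to the left at all 3 times.

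No clock gene region passed limma's test. Of 57473 regions in all 8 lists, 55 belonged to the clock genes, and 0% of all regions were called at 48, 72 or 96 h or over all PHx times at an adjusted p under 0.05 (Benjamini-Hochberg, 0 called in every contrast). At an unadjusted p under 0.05 there were 5682, 3610, 3266 and 4455 regions in all for 48, 72, 96 h and all PHx times, and 3, 2, 5 and 2 of the 55. The smallest adjusted p of a member was 0.36 at 48 h, for an Arntl intron region at chr7:113214165-113215238 with a log2 fold of 0.91 ± 0.30 (SE). The 13 promoter regions of the members differed from 0 h by −0.60 to 0.28 (48 h), −0.39 to 0.20 (72 h) and −0.11 to 0.29 (96 h), with SE of 0.24 to 0.32 at each time. The Per1 promoter regions, at −0.57 ± 0.30 and −0.60 ± 0.31, had unadjusted p of 0.082 and 0.080 at 48 h and did not pass the adjusted threshold, which no region passed.

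The clock genes outside the 10 members were described from a list of 20, made of paralogs, modifiers and outputs. All 20 had a promoter interval in all 8 lists. At 48 h 5 of 20 were stronger and 4 weaker than 0 h without overlap, beside 17.8% and 28.7% of all promoters. At 72 h 2 were stronger and 8 weaker, beside 17.5% and 30.5%, and at 96 h 2 and 2, beside 15.4% and 19.6%. Over all PHx times 1 of 20 was weaker, beside 7.87% of all promoters, a share no higher than the background. It was Rora, which encodes a receptor that activates Arntl through the element the REV-ERB receptors bind. Rora ranked 9799 and 11677 (0 h), 17178 and 19239.5 (48 h), 17619.5 and 17544 (72 h), and 16641 and 17057.5 (96 h). Its 6 PHx libraries lay close together and well apart from 0 h. In fold enrichment its promoter was 7.73 ± 0.38 (0 h) and 7.55 ± 0.08, 8.87 ± 0.38 and 8.10 ± 1.97 at 48, 72 and 96 h (SD, n = 2 each), so that the height of the peak did not show the same order.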

How the data were processed

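ATAC-Seq peak lists from 8 hepatocyte libraries were analysed, grouped by the labels' titles. Per the study's methods, the authors trimmed the reads, mapped them to mm10 with Bowtie2, discarded PCR duplicates and called peaks with MACS2, with 1 list deposited for each library (versions not given in the sources used here). The lists' names carry tags for a Tn5 shift, a cap on peak number, a loose p-value cut-off and further filtering, and the name of 72 h replicate 2 lacks the flow cell and lane that the other 7 carry. The deposited lists give, for each peak, the fold enrichment over local background (a ratio), the −log10 p, the −log10 q and the summit position. They hold no read counts, so depth is unknown, no counting interval can be given, and the study's own test on counts could not be run.

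Lines that shared an interval were collapsed to the one with the highest −log10 p, and intervals were ranked by it within each list. Ranks adjust for depth only in part, and tied ranks were averaged. Genes and TSS came from GENCODE M21 basic on GRCm38 (0 intervals ended past a chromosome's end). Regions were merged intervals that overlapped by at least 1 bp. A promoter or region was separated when both libraries of a time point ranked above, or below, both 0 h libraries. Unlisted counted as last, and log2 changes then used the list length plus 1. Regions in all 8 lists were tested with limma 3.58.1 (R 4.3.3) on quantile-normalized log2 fold enrichment, with Benjamini-Hochberg adjustment. All time points share the same 0 h libraries. The scripts (Python 3.11.15) were tested on simulated data.

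The members, the lists of related and marker genes, and the tests were chosen with earlier results of these data known. Named distal regions were each member's strongest by median percentile, and the 3 separated regions per time with the largest change among those in all 8 lists. Regions weaker or stronger at all PHx times, and those with motifs, were named after their values were seen. Alternatives were percentile, fold enrichment ranking, the 50000 strongest intervals, q under 0.05, narrower promoters, wider flanks, summit windows, other limma inputs, a replicate block, and each library left out.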

Additional observations from a re-analysis of the deposited data

Results flagged for a closer look

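The Arntl promoter stood on opposite sides of 0 h at 2 times. Its log2 rank was 0.58 above 0 h at 48 h, in both libraries (weaker), and 0.62 below 0 h at 96 h, a change of −0.62, in both libraries (stronger). At 48 h, however, replicate 2 ranked 7614, close to 7555 in 0 h replicate 2, and by percentile it lay between the 0 h libraries. This difference in rank was not tested. In limma on fold enrichment the same promoter region was 0.19 ± 0.24 (SE, log2) higher at 96 h than at 48 h, with an adjusted p of 0.90, which does not pass the threshold.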

How the results depend on the processing

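The counts of separated promoters and regions have 2 libraries on each side and no read depth behind them. Ranked by fold enrichment the separated promoters numbered 2, 3, 1 and 0 (48 h, 72 h, 96 h, all PHx times), and the Arntl change at 48 h turned to −0.0085. The cause was not tested. By percentile there were 3 promoters at 72 h. At all PHx times there were 5 distal regions, 3 weaker and 2 stronger, beside 3.91% and 7.17% of all distal regions. Among the 50000 strongest intervals the distal regions numbered 15, 14, 13 and 5 at 48, 72, 96 h and all PHx times, where fewer regions could separate. At 48 h they split into 9 weaker and 6 stronger of 30 that could separate (beside 25.5% and 24.9% of all regions). The split was 7 and 7 of 27 at 72 h (beside 21.04% and 26.4%) and 10 and 3 of 26 at 96 h (beside 22.3% and 20.01%). At all PHx times it was 3 and 2 (beside 8.22% and 4.998%), where the number that could separate was not recorded. Leaving out 1 library, which makes separation easier, gave 7 to 9, 6 to 8, 3 to 10 and 1 to 4 promoters and 52 to 67, 55 to 68, 50 to 68 and 10 to 36 distal regions, in the same order. Over all promoters the weaker share in these settings was 40.2% to 45.8%, 43.2% to 46.8%, 32.6% to 41.9% and 8.91% to 23.4%, and the stronger share 26.7% to 34.7%, 26.9% to 32.9%, 26.1% to 38.1% and 5.34% to 13.8%. Over all distal regions the weaker share was 25.6% to 51.3%, 20.7% to 44.8%, 21.8% to 48.1% and 10.5% to 36.1%, and the stronger share 20.75% to 56.6%, 29.8% to 58.2%, 22.01% to 55.1% and 4.94% to 11.05%. The counts at all PHx times and their alternatives were chosen after seeing the data. With no library left out, 33 of the 43 alternative counts of separated promoters or regions, stronger and weaker added together, were within 1.5 times the main count. This tally does not measure direction. Distal regions at 72 h by percentile fell within it, although 21 weaker and 10 stronger had become 11 and 15. In limma 0 clock gene regions were called under every alternative that was run, the replicate block included (3, 2, 6 and 3 members at an unadjusted p under 0.05). The difference between replicates 1 and 2 over regions correlated between −0.06 and 0.12 from one time point to another. This gave no sign that the numbers pair the samples, and it cannot exclude a pairing. Without quantile normalization the median of all regions was −0.37 at 48 h.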
